A study of Homo sapiens with 2 samples.

Results

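The binding of hnRNPM was described in 5 genes of basal mammary epithelial identity and adhesion, TP63, LAMA3, ITGA6, COL17A1 and PTPRK. Their members were the crosslink sites whose middle base lay within the GRCh37 bounds of a gene and on its strand. There were 122 such sites of 54373 in the whole list (0.224%). The sites came from HMLE, an established line of immortalised human breast epithelial cells, here wild type and given DMSO. There were 2 iCLIP libraries, labelled as biological replicates of 1 group, with no second condition. In iCLIP, ultraviolet light fixes a protein to the RNA it touches, and pile-ups of reverse transcription stops mark the crosslinked bases. The deposited list has 1 height per site, taken as the number of stops there and as pooled over both libraries. No spread between replicates, no depth per library and no test between conditions could therefore be given. RNA levels were not measured, so that a site number or a height does not rank binding strength, and more RNA and more binding per RNA cannot be told apart. For the same reason the basal character of the cells could not be checked against marker levels.

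Basal cells of the mammary gland rest on a basement membrane and are held to it by hemidesmosomes. TP63 encodes p63, a transcription factor of the p53 family that maintains basal epithelial cells. LAMA3 encodes the alpha chain of an epithelial laminin of the basement membrane, the ligand. ITGA6 encodes the alpha subunit of the integrin that binds this laminin, and COL17A1 a transmembrane collagen of the same hemidesmosomes. PTPRK encodes a receptor-type tyrosine phosphatase found at contacts between cells. HnRNPM is a nuclear RNA-binding protein that takes part in the choice of exons.

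Sites were found in all 5 genes, but very unevenly. ITGA6 had 43 sites in 78.9 kb, or 0.545 sites per kb (95% exact Poisson interval 0.395 to 0.734). PTPRK had the most sites, 49, spread over 552 kb, or 0.0888 per kb (0.0657 to 0.117). LAMA3 had 20 sites in 265 kb, or 0.0753 per kb (0.0460 to 0.116). COL17A1 had 3 sites in 54.6 kb, or 0.0550 per kb (0.0113 to 0.161). TP63 had 7 sites in 266 kb, or 0.0263 per kb (0.0106 to 0.0542). The intervals cover counting error only, and neighbouring sites are not independent, so the true uncertainty is wider. The interval of ITGA6 lay above those of the other 4 genes. PTPRK, LAMA3 and COL17A1 were not distinguishable from each other within these intervals, nor was COL17A1 from TP63. The interval of TP63 lay below that of PTPRK and overlapped that of LAMA3.

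ITGA6 held 35.2% of the 122 sites in 6.48% of the summed length of the 5 genes, and its density was 6.14 times that of PTPRK. This ratio depended on what was counted. It was 3.0 times by tag clusters, as read from the site names, and 12.7 times over the sites at or above the median height of the list. Against the whole list, ITGA6 was denser than 99.9% of the 8362 windows of 100 kb and 1 strand that held a site. These windows had a median of 0.04 sites per kb (quartiles 0.02 and 0.08) and a highest value of 0.87. PTPRK was denser than 75.4% of them, LAMA3 than 71.5%, COL17A1 than 62.2% and TP63 than 37.3%. These ranks depend on the window, except for ITGA6. Windows of each gene's own length that held a site were also taken, a choice made after seeing the data. Fewer sites than in the gene were found in 99.8% of them for ITGA6, 96.8% for PTPRK, 86.5% for LAMA3, 42.9% for COL17A1 and 56.4% for TP63. All these windows are fixed stretches of 1 strand and not genes, so the shares do not rank a gene among genes.

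**Figure D1:**
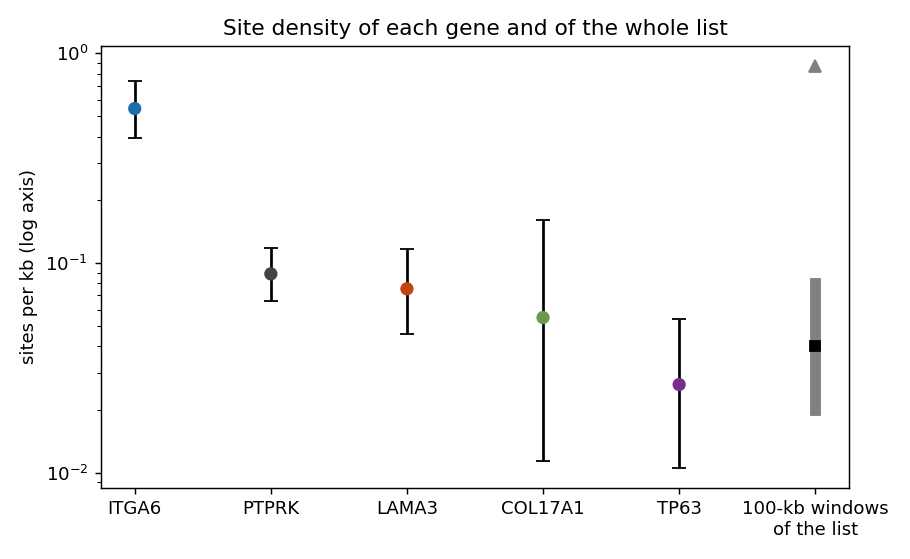
Sites per kb of each gene on a log axis, with 95% exact Poisson intervals as bars, beside the 100-kb windows of the whole list (square, median; thick bar, quartiles; triangle, highest window). ITGA6 stands at 0.545 sites per kb, above the intervals of the other 4 genes, which stand between 0.0263 and 0.0888.

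The sites kept to the labelled strand and bounds. None of the 5 genes had a site on the opposite strand, and none had a site of its own strand in the 50 kb before or after its bounds. The nearest site of the same strand lay 60.8 kb beyond the end of LAMA3, and the next closest was 66.9 kb beyond the end of ITGA6. Before the start of a gene the nearest was 218 kb away, for LAMA3. COL17A1 had 3 opposite-strand sites in the 50 kb after its end, and the other 4 genes had none in either flank.

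TP63 had sites only in its later part. Its 7 sites had heights of 7, 7, 7, 10, 17, 8 and 11 in the order of transcription. They lay 174, 183, 189.3, 189.3, 189.8, 199.8 and 249 kb from the 5′ end, so the first 65.3% of the gene held none. Since the depth is unknown here, a stretch without a site does not show that hnRNPM was not bound there. All but the last were found within 26.3 kb, and 5 of the 7 lay in the densest 20 kb, at chr3:189522705-189538970 on the plus strand (GRCh37). The tallest, at chr3:189538950-189538970, was 47.2 times its expected height. This is a value deposited with each site and taken here as the height expected in its tag cluster. This tallest site was taller than 72.8% of all sites in the list. The next were the last site of the gene, at chr3:189598376-189598396 with a height of 11, and the site at chr3:189538515-189538535 with a height of 10. Only 2 of the 7 sites (28.6%) reached the median height of the list, which was 11, against 56.1% of the list. From the first site to the gene end the density was 0.0758 sites per kb. That stretch was chosen after seeing the data and leaves out the empty part, so it is denser than the whole gene by construction.

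TP63 is known to be transcribed from 2 promoters. The inner one gives the form without the amino-terminal activation domain, which is the main form in basal epithelial cells. In GENCODE release 29, on GRCh38, TP63 has 7 transcripts with a consensus coding sequence, and 3 of them start inside the gene, 158 kb from its beginning (59.5% to 59.6% of its length). The gene has the same length there, 265864 bases, as the GRCh37 bounds used here. Positions were not converted between the builds, so the distances are given side by side: 158 kb for the inner starts in the GRCh38 annotation and 174 kb for the first site on GRCh37. Which form carried the sites was not tested.

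LAMA3, which like TP63 has a long and a short form from separate promoters, also lacked sites in its first 61.4%. One site with a height of 7 lay 163 kb from the 5′ end, and the remaining 19 began at 188 kb. With a gap of over 20 kb as a border, a choice made after seeing the data, a group of 11 sites followed from 188 to 207 kb, at chr18:21457447-21476527 on the plus strand, with heights of 6 to 28 and a median of 10. This was also the densest 20 kb of the gene, with 55.0% of its sites. A second group of 8 sites ran from 228 to 254 kb, with heights of 7 to 239 and a median of 26. The border was a close one, since 20.6 kb separated the groups and the second held a gap of 19.3 kb. Without the 2 low sites after that gap, the remaining 6 had a median of 62. From the second site to the gene end the density was 0.245 sites per kb, against 0.0753 over the whole gene. That stretch was chosen after seeing the data and leaves out the empty part, so its higher density follows from the choice. In the GRCh38 annotation, 2 of 4 LAMA3 transcripts with a consensus coding sequence start 183 to 184 kb into the gene (68.7% to 68.8% of its length). Of the 11 LAMA3 transcripts without one, 1 starts near the beginning, 3 start from 138 to 149 kb and 7 from 195 kb on. The annotated gene is 1311 bases longer than the GRCh37 bounds (0.494%). As for TP63, these distances stand beside the GRCh37 values without conversion, and the form bound was not tested.

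The 3 tallest sites of LAMA3 stood close together. They had heights of 96, 102 and 239 and lay at chr18:21497092-21497112, chr18:21497267-21497287 and chr18:21498023-21498043, with 931 nt between the middles of the outer ones. All were in 1 tag cluster with an expected height of 5.27, and they were 18.2, 19.4 and 45.4 times that value. The tallest ranked 29 in the whole list. The trio held 67.2% of the summed height of the gene. The other 17 sites had a median of 10 and reached at most 28. Whether they fell in exons was not analysed here, since the annotation at hand was on another build.

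The inner LAMA3 start is the 1 start that the RefSeq promoter table (GRCh38.p14) gives for this gene, 184 kb from the beginning of the GENCODE gene. Its sequence is shown around the letters of the AP-1 motif, the element bound by Fos and Jun proteins. The start was picked because the gene's sites were gathered in its later part, a choice made after seeing the data. Use of this start, and any link between the motif and the hnRNPM sites, were not tested. In the 250 bases before the start, TGACTCA and TGAGTCA, which are reverse complements so that both strands were covered, were each found once on the plus strand, beginning 125 and 69 bases before it. The motif is in capitals, with 10 bases on either side. Of the 2 inner GENCODE transcripts with a consensus coding sequence, 1 starts shortly before both matches.
LAMA3 chr18:23872885-23872911: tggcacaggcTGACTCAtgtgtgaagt
LAMA3 chr18:23872941-23872967: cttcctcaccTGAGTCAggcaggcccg
Of 35116 RefSeq promoters searched over the same 250 bases, 4.20% held the motif and 64 (0.182%) held it 2 or more times. The table matched all 5 genes, with 6 entries, and the entries of TP63, ITGA6, COL17A1 and PTPRK did not hold these letters in this window. The TP63 entry is that of the outer start, and the inner start of TP63 was not searched, nor was the outer start of LAMA3. Since the LAMA3 start was picked after seeing the data, these shares do not measure how unusual its matches are. A match describes the letters and not a bound site.

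ITGA6 had sites along its whole length, and both their density and their median height were highest near the 5′ end. The heights ran from 8 to 86 with a median of 18, against a median of 11 in the whole list (quartiles 8 and 17). Of the 43 sites, 38 (88.4%) were at or above the list median, against 56.1% of the list. With the gene cut into 5 equal parts, there were 15, 13, 8, 5 and 2 sites from the first part to the last, and the density went down from 0.951 to 0.127 sites per kb. The median heights in these parts were 30, 18, 17, 12 and 9.5. Across the 43 sites, which share 1 RNA and often a tag cluster, Spearman's rho between height and distance from the 5′ end was -0.54. The expected height moved the same way, with a rho of -0.74. The ratio of height to expected height had a median of 24.1 in ITGA6, against 23.7 in the list.

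The densest 20 kb of ITGA6, at chr2:173297371-173316905 on the plus strand, held 25 sites with heights of 10 to 57. The first site of the gene lay 1.51 kb from the 5′ end and the last 0.668 kb before the 3′ end. The longest stretch without a site, 14.9 kb, preceded that last site. The tallest site, at chr2:173329087-173329107, lay 36.8 kb from the 5′ end, with a height of 86 and 64.7 times its expected height. It was followed by a pair of equal height, 57, at chr2:173302111-173302131 and chr2:173305677-173305697. Of the 43 sites, 40 (93.0%) had another of the strand within 1 kb, against 57.3% of the list. The sites fell into 15 tag clusters, of which 11 held several sites and the fullest 7. Counted by tag clusters, ITGA6 had 0.190 per kb, still the highest of the 5 genes.

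**Figure D2:**
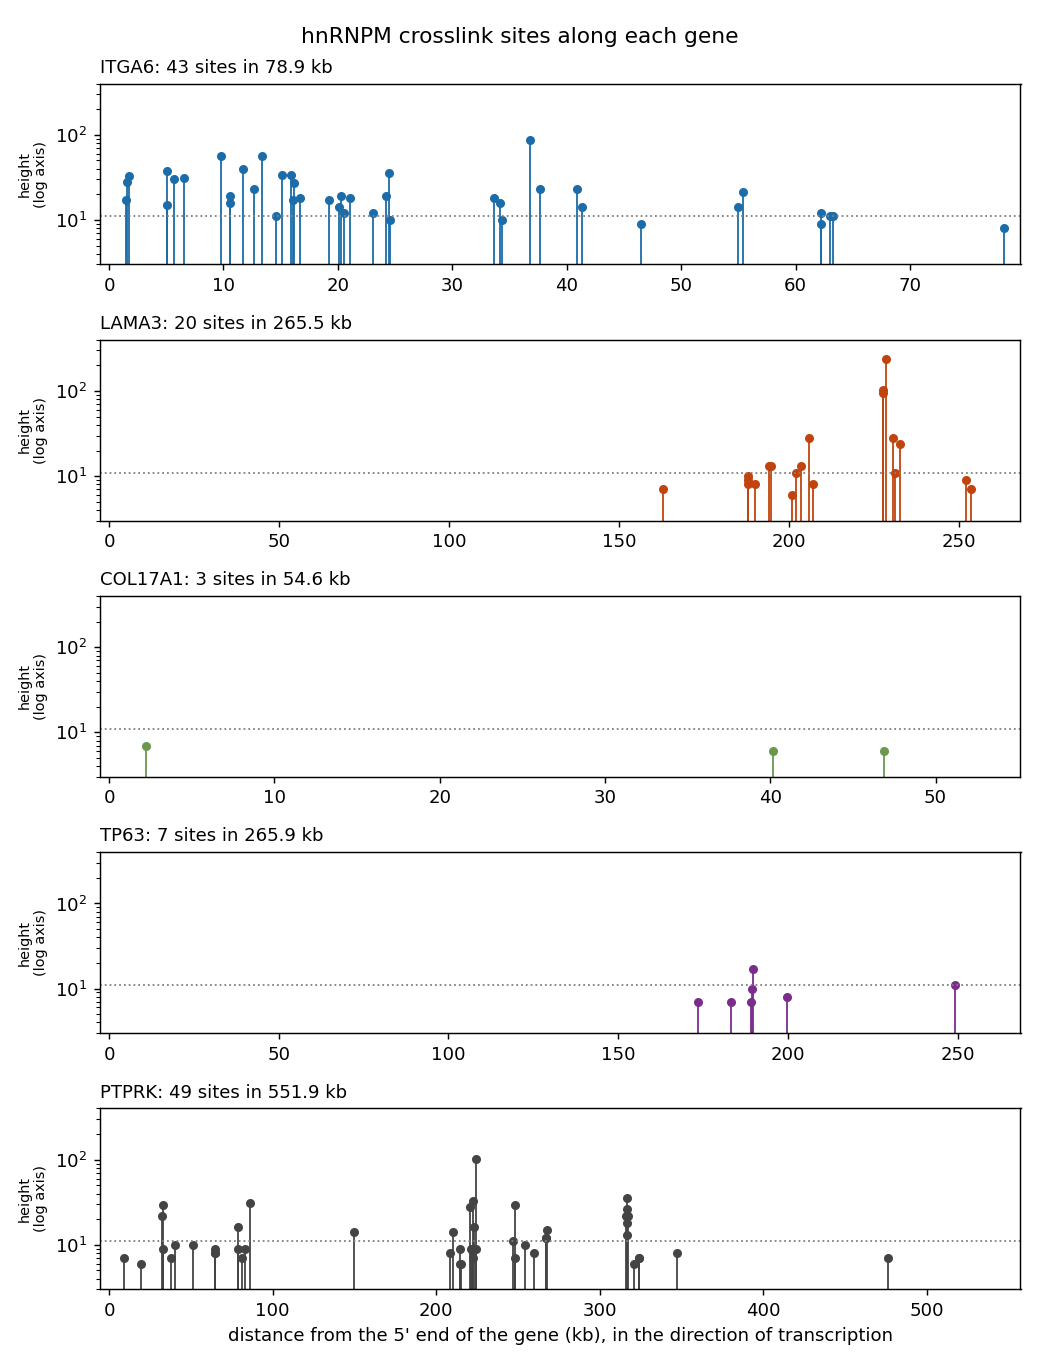
Height of each site (log axis; dotted line, median of the whole list, 11) against the distance from the 5′ end of its gene in kb, 1 panel per gene, with each point a site. ITGA6 is covered from end to end with most sites early, and the sites of LAMA3 and TP63 begin at 163 and 174 kb. Those of PTPRK have long stretches without a site between them.

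COL17A1, the other hemidesmosome component, had few and low sites. The heights were 7, 6 and 6 in the order of transcription, 2.22, 40.2 and 46.9 kb from the 5′ end. They lay at chr10:105843405-105843425, chr10:105805459-105805479 and chr10:105798761-105798781 on the minus strand. The first was taller than 6.40% of the list and the others than 0.982%. Each was in a tag cluster of its own, none had a neighbour within 1 kb, and 37.9 kb without a site separated the first from the second. All were 24.0 to 30.4 times their expected height, against a median of 23.7 in the list. Their expected heights were low, 0.22 to 0.25 against a median of 0.51 in the list. The ratios therefore do not rank these sites above others. The densest 20 kb of COL17A1 held the last 2 sites.

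The sites of PTPRK, the longest of the genes, had long stretches without a site between them. Taking a gap of over 20 kb as a border, a choice made after seeing the data, there were 7 groups. Of these, 3 held a single site and lay 150, 348 and 476 kb from the 5′ end. The same border also split the sites of LAMA3, COL17A1 and TP63. Whether the sites of PTPRK were more grouped than scattered ones would be was not tested. A first group of 16 sites ran from 9.11 to 86.4 kb, with heights of 6 to 31 and a median of 9. The second large group, 13 sites from 209 to 224 kb, had heights of 6 to 101 and was also the densest 20 kb of the gene, at chr6:128617424-128633062 on the minus strand. The third held 8 sites from 247 to 268 kb, with heights of 7 to 29. The fourth held 9 sites from 316 to 324 kb, with heights of 6 to 35 and a median of 18, the highest median of the groups. The 228 kb after it held 2 sites, with heights of 8 and 7. The longest stretch without a site was 129 kb.

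The tallest site of PTPRK, at chr6:128617424-128617444, had a height of 101, which was 2.89 times that of the next. It was 112 times its expected height, a ratio that ranked 11 in the whole list. The next were at chr6:128524876-128524896 with a height of 35 and at chr6:128619307-128619327 with a height of 33. The median of the gene was 9, and 21 of its 49 sites (42.9%) reached the list median of 11, against 56.1% of the list. Spearman's rho between height and distance from the 5′ end was 0.10 over the 49 sites. Of 5 equal parts of the gene, the middle one held 24 sites, or 0.217 per kb, and the parts from first to last held 16, 7, 24, 1 and 1.

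**Figure D3:**
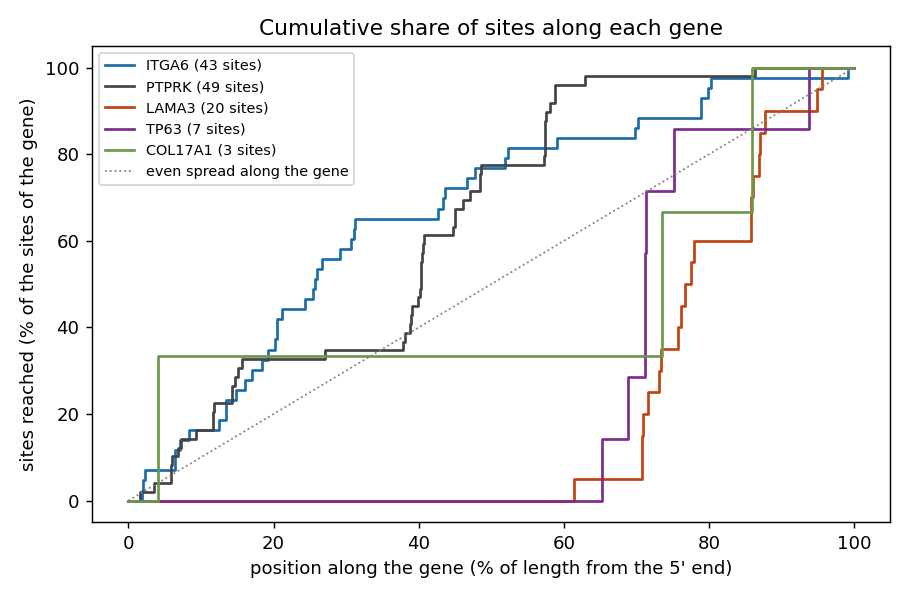
Cumulative share of the sites of each gene against position as a percentage of gene length from the 5′ end; the dotted line is an even spread. The sites of ITGA6 have a median position of 25.8% and those of PTPRK 40.3%, whereas those of TP63 and LAMA3 lie at 71.2% and 77.1%. COL17A1 has only 3 sites, at 4.07%, 73.6% and 85.8% of its length.

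The order of the genes by position was not that by density. In ITGA6 33 of 43 sites and in PTPRK 38 of 49 lay in the first 50% of the gene, while none of the 20 sites of LAMA3 or the 7 of TP63 did. The median position was 25.8% of the gene length in ITGA6 (95% binomial interval of the median over sites 19.2% to 42.7%), 40.3% in PTPRK (37.8% to 45.0%), 71.2% in TP63 (65.3% to 93.7%) and 77.1% in LAMA3 (73.1% to 86.1%). COL17A1 had too few sites for such an interval, and that of TP63 runs from its first site to its last. The intervals treat sites as independent, which neighbouring sites are not. The 43 sites of ITGA6 fell into 15 tag clusters and the 49 of PTPRK into 35, so the true uncertainty is wider.

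Taken over all 5 genes, the sites had a median height of 12, against 11 in the list, and 72 of 122 (59.0%) were at or above the list median, against 56.1% of the list. The genes differed in how far single sites stood out. The tallest site was 21.7 times the gene's median in LAMA3, 11.2 times in PTPRK, 4.78 times in ITGA6, 2.13 times in TP63 and 1.17 times in COL17A1. Of the 192 sites of the list with a height of at least 100, 3 were in these genes, 2 in LAMA3 and 1 in PTPRK. Set against the expected height, the gene medians ran from 23.7 times in LAMA3 to 27.3 times in COL17A1. COL17A1 was also the gene with the lowest median expected height, 0.23. The median of all gaps between neighbouring sites was 740 nt in ITGA6, 1364 nt in PTPRK, 1613 nt in LAMA3, 7878 nt in TP63 and 22322 nt in COL17A1. In the list it was 1421 nt, but only over gaps of up to 50 kb, a limit not set for the genes.

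**Figure D4:**
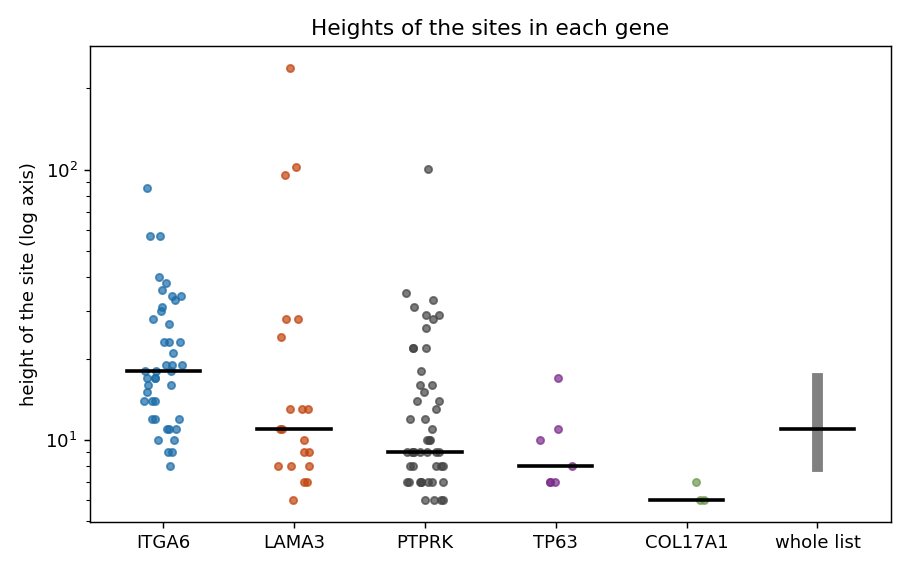
Height of every site on a log axis by gene, with each point a site and the black line the median, beside the median and quartiles (grey bar) of the whole list. ITGA6 has the highest median, 18, LAMA3 the tallest site, 239, and the 3 sites of COL17A1 lie at 6 and 7.

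In the GRCh38 annotation, introns make up most of all 5 genes, from 87.1% of COL17A1 to 98.4% of PTPRK, with 91.7% of ITGA6, 94.5% of LAMA3 and 97.2% of TP63. The share of sites in introns was not measured.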

How the data were processed

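The authors deposited 1 list of 21-nt intervals for the series. The height of a site is the score the authors deposited, a whole number. The name of each site also gives a P value and fields taken here as an expected height and a tag cluster. The list does not define the expected height. The build is GRCh37, per the submitters' processing notes. The name of each site begins with the label CITS. Aligner, site-calling software, treatment of PCR duplicates and pooling are not given in the sources used here. Site middles were assigned to the bounds of each gene by strand. Sites per kb are counts over gene length with exact Poisson 95% intervals. Windows of 100 kb, the densest 20 kb, flanks of 50 kb and neighbours within 1 kb were counted on the same list. The naming rule took all 5 genes and the 3 tallest sites of each. The members, lists and measures were chosen with earlier results of these data known. Annotation came from GENCODE 29 and RefSeq, both on GRCh38, and gave lengths, distances within a gene and promoter letters only. Counting was tested on simulated sites. No test between groups was run. Alternatives were a P value of at most 1e-06, the taller 50% of sites, sites within 50 nt merged, and tag clusters. Counts and figures were made in Python 3.11.15 with scipy 1.17.1, pandas 2.3.3, matplotlib 3.10.9 and numpy 2.4.6.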

Additional observations from a re-analysis of the deposited data

How the results depend on the processing

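Of 68 alternative values for site number, density, median position and median height, 47 stayed within the limit set for them, which was 1.5 times the reported value for site numbers and, for the others, the 95% interval given with the value (for COL17A1 medians, the range of its 3 sites). With the authors' P value of at most 1e-06, 32854 of the 54373 sites of the list remained. ITGA6 kept 34 sites (0.431 per kb), PTPRK 27 (0.0489 per kb) and LAMA3 12 (0.0452 per kb). TP63 kept 3 and COL17A1 0 (0 per kb). Since the whole list shrank, a lower count is not by itself a trait of a gene. The sites at or above the list median were, with ties, 30530 of the 54373. Of these, 38 (0.482 per kb) were in ITGA6, 21 (0.0380 per kb) in PTPRK and 11 (0.0414 per kb) in LAMA3. There were 2 (0.0075 per kb) in TP63 and 0 in COL17A1. LAMA3 thus passed PTPRK in density. By tag clusters, ITGA6 had 15 (0.190 per kb) and PTPRK 0.0634 per kb. The median height of ITGA6 was 1.64 times that of the list, 1.25 times with the stricter P value and 1.02 times for height over expected height. For height over expected height, the value was 1.15 times in COL17A1, 1.09 times in TP63 and 1.09 times in PTPRK. For height it was 0.545, 0.727 and 0.818 times, so these 3 genes changed sides of the list median. Their median expected heights were 0.23, 0.32 and 0.43, against 0.51 in the list. Why the genes changed sides was not tested. Merging sites moved none of these values beyond those limits. In TP63 and COL17A1, with smallest gaps of 55 and 6698 nt, merging within 50 nt could change nothing. Requiring the whole site inside the gene could change no count, since no site lay within 0.6 kb of a bound. Every alternative of median position stayed within its interval in ITGA6, LAMA3 and PTPRK. The limits of TP63 run from its first site to its last, so its alternatives could not leave them. The same holds for COL17A1, which had too few sites for an interval. The 47 values include these fixed outcomes. Median position and height of COL17A1 could not be given under the stricter P value, with no site left. The planned counts for 22 partner genes were not run without a GRCh37 annotation. No paired analysis was possible because both libraries form 1 group and the heights are not split by library, which also kept replicates from being left out. Depth is unknown here, so how many low sites were missed cannot be stated.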
